A study of Mus musculus with 6 samples.

Results

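Cytochrome c oxidase (complex IV) is the enzyme of the mitochondrial inner membrane that passes electrons from cytochrome c to oxygen, and several of its nuclear subunits come in alternative isoforms. The mRNA of 10 genes was followed in GC-2spd cells under normal and low oxygen. They are Cox4i1 and Cox4i2, Cox6a1 and Cox6a2, Cox7a1, Cox7a2 and the related Cox7a2l, Ndufa4 and Ndufa4l2, and Higd1a, whose product binds the respiratory chain. The genes were chosen by name as isoform pairs of complex IV subunits plus Higd1a, out of 43412 annotated genes in the deposited tables, and all 10 were listed there. GC-2spd is an immortalized mouse line derived from spermatocytes, and the labels give its background as C57BL/6J and its tissue as testis. The 3 normoxia libraries came from cells at 21% oxygen, the 3 hypoxia libraries from cells moved to a workstation at 1% oxygen, and both groups had the same medium with 5% CO2. The labels give no time in hypoxia, and nothing in them states that libraries with the same treatment were grown apart, so p-values measure the spread between these libraries, which may be technical.

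Levels are given in TPM, a length-scaled unit in which transcripts of a gene are counted relative to all transcripts, so that levels of different genes can be set side by side. The libraries held 5.75 to 6.72 gigabases of aligned sequence. Genes with a mean of at least 1 TPM were tested on the scale of log2(TPM + 1) with limma over 13749 genes, and p-values were adjusted by Benjamini-Hochberg and called under 0.05. Fold changes are on that scale and understate the change of low genes. Of all genes tested 17.9% were called higher and 36.1% lower in hypoxia, and the median log2 fold change of all genes was −0.13, a shift that median-ratio scaling moved to 0.0014 and against which the changes below are read. With that scaling 3603 genes were called higher and 3622 lower, against 2463 and 4967 without it, and quantile normalization gave 3575 and 3639. Of 14 markers of germ cells and spermatocytes, 13 were under 1 TPM in every library and 6, among them Sycp1, Stra8 and Piwil1, were listed at 0, while Hspa2 was present. Of 8 spermatid markers none reached 1 TPM in any library. The fibroblast genes Col1a1 and Col1a2 were abundant, and the summed TPM of 9 fibroblast and myoid markers was 2291 to 2360 in normoxia and 2724 to 2978 in hypoxia. The rise of that sum was carried by Col1a1, at 1161 ± 53.8 and 1720 ± 48.0 TPM (SD, n = 3). Col1a2 was at 1123 ± 25.8 and 1138 ± 189 TPM (SD, n = 3). Pdgfra, Pdgfrb and Des of the same list lay lower in hypoxia without overlap, Pdgfrb at 6.62 ± 0.207 and 1.45 ± 0.185 TPM (SD, n = 3). Of the markers of other cells, 3 of 8 for Sertoli cells, 3 of 7 for Leydig cells, 2 of 5 for macrophages and 0 of 5 for endothelial cells had a mean of at least 1 TPM. The part of these levels in the results on complex IV was not tested, and in RNA from whole cultures fewer expressing cells and less RNA per cell cannot be told apart.

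Isoforms of complex IV subunits are best known from tissue and oxygen differences. COX4-1, the product of Cox4i1, is the general form of the largest nuclear subunit, and COX4-2 is known from lung and from hypoxic cells, where HIF-1 raises COX4I2 and the mitochondrial protease LONP1, which degrades COX4-1. COX6A2 and COX7A1 are the forms of heart and skeletal muscle, and COX6A1 and COX7A2 those of other tissues. COX7A2L, also called SCAF1, joins complex IV to complex III in supercomplexes. NDUFA4, first counted with complex I, is a subunit of complex IV, and NDUFA4L2 is its hypoxia-induced relative. HIGD1A is a small inner membrane protein that is a known HIF-1 target and binds complex IV.

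HIF binds the core of the hypoxia response element, and this core was looked for in the promoters of the members. The RefSeq promoter windows of build GRCm38.p6, from 250 bases before to 50 after a start, matched 6 of the 10 members by symbol. They were searched on both strands for ACGTG and GCGTG, and a stretch of 30 bases around each match is printed 5′ to 3′ on the gene's strand, with the motif in capitals (CACGC and CACGT are the motifs on the opposite strand).
Higd1a, minus strand, chr9:121857849-121857878: ccggtctagcctGCGTGCGTGgcgttcgcg
Higd1a, minus strand, chr9:121857747-121857776: cgccagcactgccgcccaggcctCACGTct
Ndufa4, minus strand, chr6:11907401-11907430: tgcagaagcggcttaGCGTGtgtcctaatc
Cox7a1, plus strand, chr7:30184106-30184135: atctaatttggtCACGCcccaccagtctgg
Cox7a1, plus strand, chr7:30184134-30184163: gggagtcagtggGCGTGgcttgggattccc
Cox7a1, plus strand, chr7:30184168-30184197: ggtaaagtgctgCACGTccttgggcgaaga
Cox7a2, minus strand, chr9:79759947-79759976: gctgcaagacttCACGCctctccattgcgg
Higd1a held 3 matches, of which the pair beginning 70 and 66 bases before the start overlap by a base and the other begins 44 bases into the transcript. Cox7a1 also held 3, Cox7a2 and Ndufa4 held 1 each, and Cox6a1 and Cox7a2l held none. The single match of Ndufa4 begins 36 bases into the transcript. At least 1 match was found in 43.8% of the 32851 windows of the table, so these matches are a description of the sequence and mark no bound site. The RefSeq start of Higd1a lies inside the deposited gene, which begins further upstream.

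Of the 8 members tested, 3 were called higher in hypoxia (Higd1a, Cox6a2 and Cox7a2l), 2 were called lower (Ndufa4 and Cox6a1) and 3 were not called (Cox4i1, Cox7a1 and Cox7a2). Either direction was called for 54% of all tested genes, so the share of called members lies near the background. The groups did not overlap for 5 of the 8, against 62.4% of all tested genes. With median-ratio scaling, 4 members were called higher and 1 lower, since Cox6a1 lost its call and Cox7a1 gained one. Quantile normalization gave 4 higher and 2 lower, and FPKM and rescaling without mitochondrially encoded genes each gave 3 higher and 3 lower. Cox4i2 and Ndufa4l2, the members known for induction by hypoxia in other cells, were too low to be tested. No call of Higd1a, Cox6a2, Cox7a2l or Ndufa4 was lost under any setting in which the gene was tested.

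**Figure D1:**
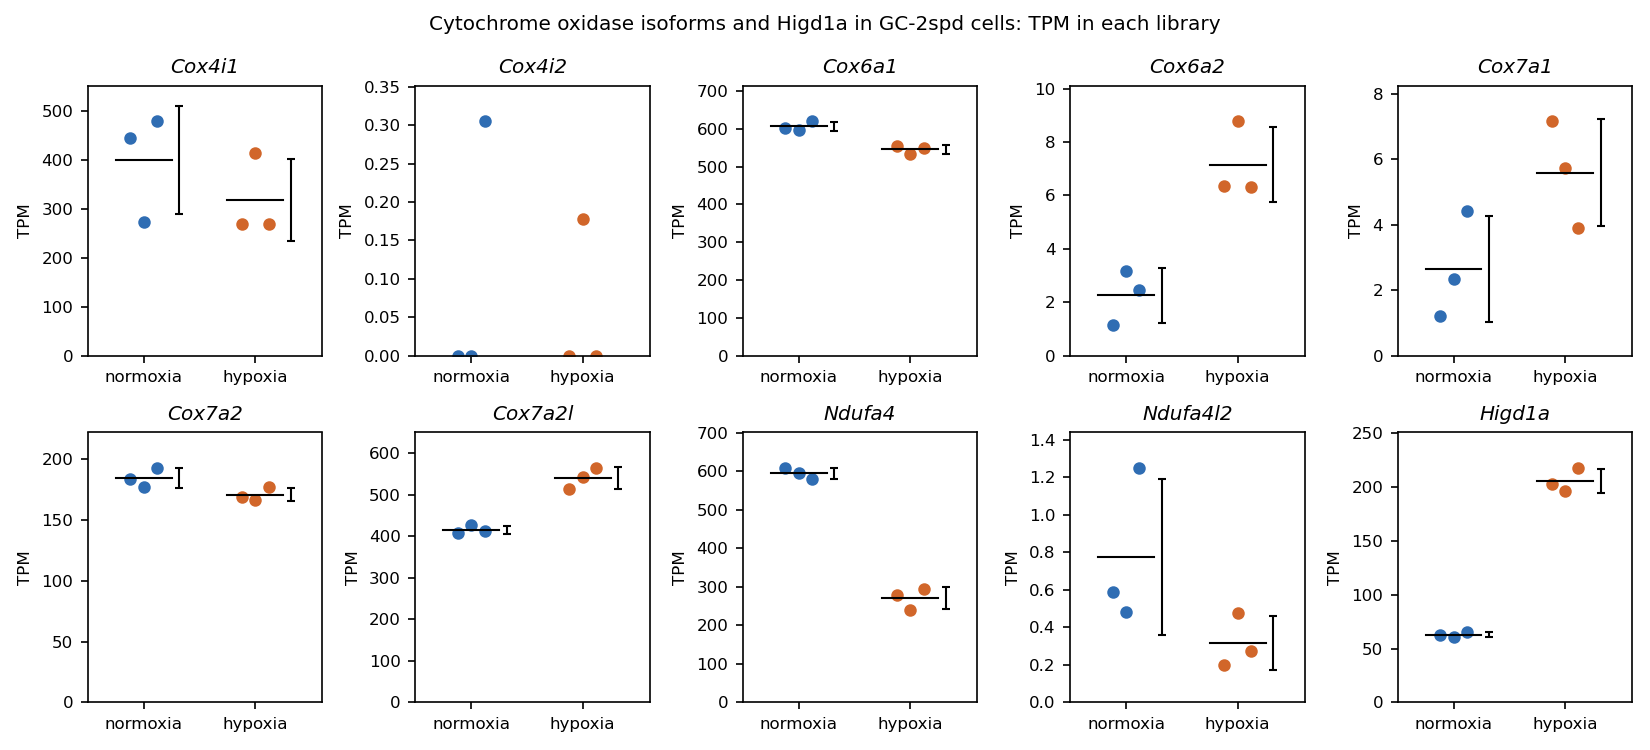
TPM of the 10 members in each of 6 libraries of GC-2spd cells (vertical axes in TPM from 0, each panel with its own scale). Points are libraries (blue normoxia, orange hypoxia), the line is the group mean and the bar its SD (n = 3), both left out for Cox4i2, which is listed at 0 in some libraries. Higd1a, Cox7a2l and Cox6a2 lie higher in hypoxia, Ndufa4 lies lower, and Cox4i2 and Ndufa4l2 stay below 1.3 TPM.

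Among the COX4 isoforms, nearly all mRNA was Cox4i1 under both conditions. Cox4i2 (ENSMUSG00000009876, chromosome 2 of mm10 from 152754173 to 152765037) was listed at 0 TPM in normoxia replicates 1 and 2 and at 0.305 in replicate 3, and at 0, 0.178 and 0 in hypoxia replicates 1 to 3. The single nonzero values in the 2 groups rest on a mean read depth of 0.761 and 0.467. Cox4i2 made up at most 0.0637% of the summed TPM of the pair in any library, and the highest hypoxia value was 0.043%, so that no rise of this isoform was detectable at this depth. The files hold no counts from which an upper limit could be set.

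Cox4i1 (ENSMUSG00000031818, chromosome 8 from 120668222 to 120674207) was at 445, 274 and 479 TPM in normoxia replicates 1 to 3 and at 269, 414 and 268 TPM in hypoxia replicates 1 to 3. The libraries fell either between 268 and 274 or between 414 and 479 TPM, with both levels present in both groups, so the groups overlapped. The means were 399 ± 110 and 317 ± 83.9 TPM (SD, n = 3), for a log2 fold change of −0.32 (95% interval −0.92 to 0.28, adjusted p = 0.322 from limma). This interval includes falls of a size that other subunits showed, such as −0.43 for Cox6c. It also includes rises, but none as large as that of Cox7a2l at 0.38. The mean read depth over the gene, divided by the aligned gigabases, did not show this split. It was 47.4, 45.8 and 49.5 per gigabase in normoxia and 46.4, 44.2 and 44.5 in hypoxia. With coverage rescaled in place of TPM, a setting chosen after seeing the data, the log2 fold change was 0.0097 (adjusted p = 0.844 from limma). StringTie sums TPM over the transcripts that it assembles, and the locus assembled around Cox4i1 held 454, 337 and 483 TPM in normoxia and 329, 429 and 340 in hypoxia. Its surplus over the annotated gene was thus largest in the 3 libraries with the low values. How reads were divided among transcripts of Cox4i1 was not tested. A further annotated gene, Gm20388, spans Cox4i1 on the same strand at 39.8 to 44.3 TPM in normoxia and 31.6 to 33.2 in hypoxia.

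**Figure D2:**
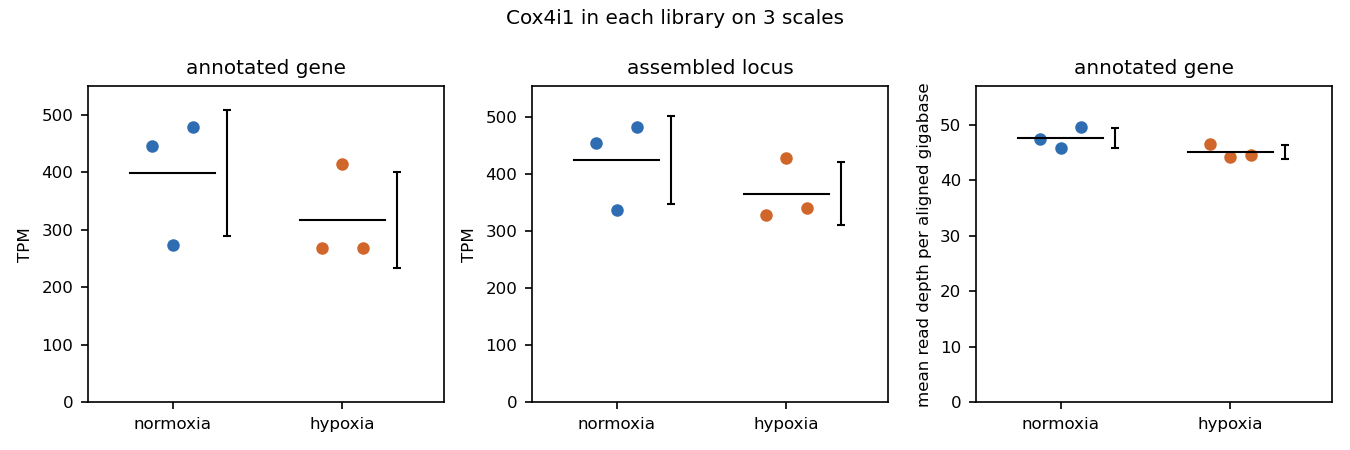
Cox4i1 in each library on 3 scales, as TPM of the annotated gene (left), TPM of the locus assembled from the reads (middle) and mean read depth per aligned gigabase (right), all axes from 0. Points are libraries, lines are group means and bars SD (n = 3). The annotated TPM ranges from 268 to 479, whereas the depth per gigabase lies between 44.2 and 49.5 in all 6 libraries.

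Genes tied to the choice of COX4 isoform moved in both directions. Lonp1, the protease gene, was at 204, 207 and 207 TPM in normoxia and at 434, 433 and 444 in hypoxia, with no overlap. Its mean rose from 206 ± 1.84 to 437 ± 6.32 TPM (SD, n = 3), and limma gave a log2 fold change of 1.08 (95% interval 1.00 to 1.16, adjusted p = 2.34e-06). Rbpj, a DNA-binding factor reported at the COX4I2 promoter, rose from 99.2 ± 1.59 to 172 ± 39.8 TPM (SD, n = 3). Its hypoxia replicate 3 at 126 TPM stood below the others at 190 and 200 TPM, whereas its read depth per gigabase was 10.6, 10.9 and 11.1 in these libraries. Chchd2, whose product acts at that promoter too, fell from 640 ± 19.0 to 473 ± 33.2 TPM (SD, n = 3), and Cxxc5, a repressor there, fell from 2.85 ± 0.346 to 1.65 ± 0.321 TPM (SD, n = 3). Of the HIF subunits, Hif1a mRNA fell from 107 ± 3.00 to 70.9 ± 5.51 TPM, while Arnt mRNA rose from 54.9 ± 2.07 to 73.1 ± 1.10 TPM (SD, n = 3). The authors reported a rise of HIF-1α protein under hypoxia by Western blot, so the fall of Hif1a concerns mRNA alone. Epas1, which encodes HIF-2α, was at 0.0226 to 0.234 TPM and was not tested. Of 7 genes on this list 6 were tested, 3 were higher and 3 lower, beside 17.9% and 36.1% of all tested genes, with a median log2 fold change of −0.016, which turned to 0.13 under median-ratio scaling and 0.055 under quantile normalization, each with the same numbers of calls.

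Ndufa4 fell to 0.457 times its normoxic level, and Ndufa4l2 stayed low under both conditions. Ndufa4 (ENSMUSG00000029632, chromosome 6 from 11900373 to 11907446) was at 610, 596 and 579 TPM in normoxia and at 280, 239 and 295 TPM in hypoxia. Every hypoxia library lay below every normoxia library. The means were 595 ± 15.3 and 272 ± 28.9 TPM (SD, n = 3), for a log2 fold change of −1.13 (95% interval −1.32 to −0.95, adjusted p = 5.00e-05 from limma), which was rank 526 among the falls of 13749 genes. Over all settings with a test the log2 fold change of Ndufa4 ranged from −1.22 to −0.99.

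Ndufa4l2 (ENSMUSG00000040280, chromosome 10 from 127514939 to 127517152) was at 0.59, 0.483 and 1.25 TPM in normoxia and at 0.201, 0.476 and 0.274 TPM in hypoxia. The highest hypoxia value was just below the lowest normoxia value, and the group means were 0.774 ± 0.416 and 0.317 ± 0.142 TPM (SD, n = 3). The gene did not pass the filter, and without a filter its log2 fold change was −0.41 (95% interval −0.86 to 0.04, adjusted p = 0.165 from limma). Its mean read depth was 0.467 to 3.12 in the 6 libraries. The gene shares 30 bases with Shmt2, an abundant gene on the opposite strand. The strand setting of the quantification is not given in the sources used here, so the few reads of Ndufa4l2 are uncertain. Ndufa4l2 made up 0.131% ± 0.0737 of the summed TPM of the pair in normoxia and 0.121% ± 0.0678 in hypoxia (SD, n = 3), a difference of −0.0099 percentage points (exact permutation test over libraries, 2-sided p = 0.6). The summed level of the pair fell from 596 ± 14.9 to 272 ± 28.8 TPM (SD, n = 3, exact permutation p = 0.1, the smallest that 3 libraries against 3 allow). The other NDUFA4 relative, AA467197, was at 0.313 to 1.47 TPM and was not tested.

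Higd1a rose in every setting tested. The gene (ENSMUSG00000038412, chromosome 9 from 121848560 to 121858000) was at 63.0, 60.3 and 65.7 TPM in normoxia and at 202, 196 and 218 TPM in hypoxia. The lowest hypoxia library was far above the highest normoxia library. The means were 63.0 ± 2.69 and 205 ± 11.3 TPM (SD, n = 3), for a log2 fold change of 1.69 (95% interval 1.55 to 1.82, adjusted p = 3.45e-06 from limma), or 3.26 times as the ratio of the means. This was rank 69 among the rises of all tested genes. Over all settings with a test the log2 fold change ranged from 1.61 to 1.83.

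The 2 relatives Higd1b and Higd1c were listed at 0 in every library. Higd2a, another small HIG1 domain gene and an assembly factor of complex IV, was at 160, 162 and 184 TPM in normoxia and 164, 143 and 179 TPM in hypoxia, with a log2 fold change of −0.062 (95% interval −0.29 to 0.16, adjusted p = 0.609 from limma). Higd1a therefore went from 27.2% ± 0.977 to 56.0% ± 1.65 of the summed TPM of Higd1a and Higd2a (SD, n = 3). The shares did not overlap, and the exact permutation p was 0.1 (0.2 when adjusted over 6 shares). The 5 tested genes whose profile over the 6 libraries was nearest to Higd1a, by Euclidean distance between centred log2 values, were Kdm3a, Pim2, Foxo3, Map3k1 and Bnip3. Their log2 fold changes were 1.66 to 1.78, so this distance mainly picks genes with a change as large as that of Higd1a. Shared regulation was not tested. Kdm3a, a histone demethylase gene and known HIF target, was at a distance of 0.0931 and went from 53.0 ± 2.57 to 175 ± 7.34 TPM (SD, n = 3). Bnip3, a mitophagy receptor gene, was at a distance of 0.15 and went from 444 ± 4.75 to 1486 ± 32.6 TPM (SD, n = 3). Of the words of 50 bases in annotated Higd1a transcripts 24.4% also occur in transcripts of other genes, 634 of 798 of them in Gm47112, which is annotated on the opposite strand and was not used here. The pseudogene Gm9790, which holds most of the others, was at 1.18 to 5.36 TPM.

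**Figure D3:**
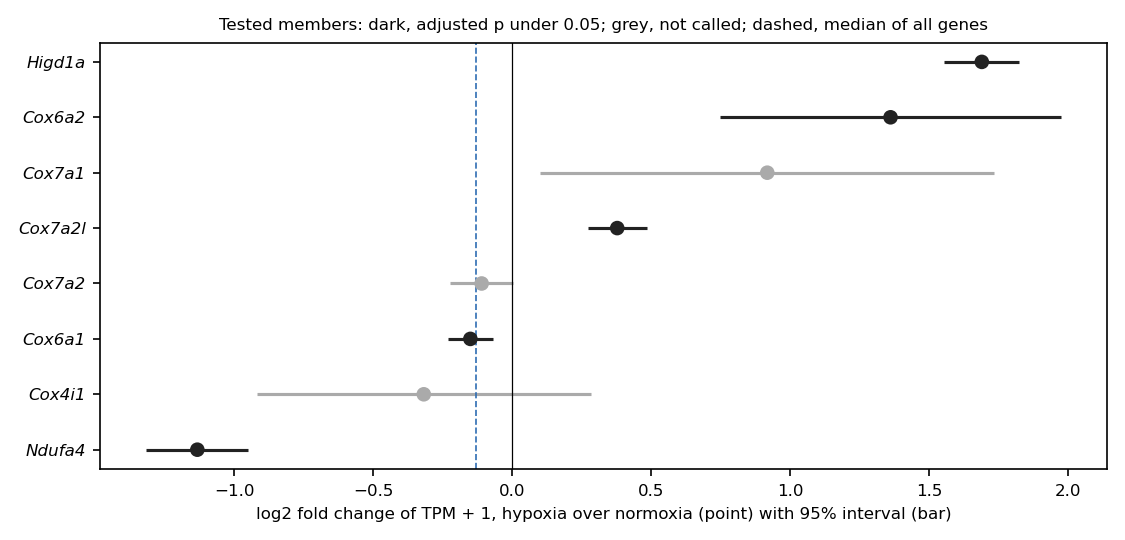
Log2 fold change of TPM + 1, hypoxia over normoxia, of the 8 tested members (points) with the 95% interval from limma (bars, n = 3 per group). Dark members passed an adjusted p of 0.05, grey ones did not, and the dashed line is the median of all tested genes at −0.13. Higd1a at 1.69 and Ndufa4 at −1.13 lie farthest from that line among the abundant members.

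In the COX6A pair the general isoform prevailed under both conditions, and the muscle isoform rose at a low level. Cox6a2 (ENSMUSG00000030785, chromosome 7 from 128205436 to 128206366) was at 1.16, 3.18 and 2.45 TPM in normoxia and at 6.36, 8.78 and 6.33 TPM in hypoxia. All hypoxia libraries were above all normoxia libraries, although normoxia replicate 1 was well below the other normoxia libraries. The means were 2.27 ± 1.03 and 7.16 ± 1.40 TPM (SD, n = 3), for a log2 fold change of 1.36 (95% interval 0.75 to 1.97, adjusted p = 0.00416 from limma). With a pseudocount of 0.1 it was 1.71 and with 5 it was 0.75, and the call stood with each. The mean read depth of Cox6a2 was 3.08 to 7.56 in normoxia and 14.4 to 23.0 in hypoxia. The gene lies wholly within Itgad on the opposite strand, which reached at most 0.00491 TPM.

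Cox6a1 (ENSMUSG00000041697, chromosome 5 from 115345642 to 115348981) was at 603, 596 and 620 TPM in normoxia and at 555, 532 and 550 TPM in hypoxia. The groups did not overlap, but the change was small, with a log2 fold change of −0.15 (95% interval −0.23 to −0.07, adjusted p = 0.00922 from limma). With median-ratio scaling it was −0.0052 (adjusted p = 0.914 from limma), and with quantile normalization −0.28 (adjusted p = 0.00095 from limma), so the size of its fall depended on the scaling. Cox6a2 made up 0.373% ± 0.171 of the summed TPM of the pair in normoxia and 1.30% ± 0.282 in hypoxia (SD, n = 3, exact permutation p = 0.1, 0.2 when adjusted over 6 shares). Of 13 markers of striated muscle, 11 had a mean under 1 TPM and 5, among them Myh2, Myh7 and Myl2, were listed at 0 in every library. Tnnt2 was at 7.06 ± 0.131 TPM in normoxia and 7.27 ± 0.507 in hypoxia, and Tnni3 at 1.44 ± 0.118 and 1.19 ± 0.197 (SD, n = 3). Tnnt3 and Actn3 lay lower in hypoxia without overlap, while Acta1 had a higher mean there with overlap. The summed TPM of these markers was 9.92 to 12.5 in normoxia and 8.23 to 9.77 in hypoxia.

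In the COX7A family the mRNA of Cox7a2l gained in share and that of the muscle isoform stayed low. Protein and supercomplexes were not measured in these libraries. Cox7a2l (ENSMUSG00000024248, chromosome 17 from 83501919 to 83514333) was at 408, 426 and 413 TPM in normoxia and at 513, 542 and 565 TPM in hypoxia. Every hypoxia library was above every normoxia library. The means were 416 ± 9.33 and 540 ± 25.9 TPM (SD, n = 3), for a log2 fold change of 0.38 (95% interval 0.27 to 0.48, adjusted p = 0.000522 from limma). In all 3 hypoxia libraries no locus assembled on the strand of Cox7a2l covered at least 50% of the gene, so no assembled value could be used. The read depth of the annotated gene per gigabase was 154, 166 and 157 in normoxia and 199, 199 and 205 in hypoxia, also without overlap.

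Cox7a2 (ENSMUSG00000032330, chromosome 9 from 79755241 to 79759853) was at 184, 177 and 193 TPM in normoxia and at 169, 166 and 177 TPM in hypoxia. The ranges overlapped slightly, and the log2 fold change of −0.11 (95% interval −0.22 to 0.0024, adjusted p = 0.089 from limma) was close to the median of all genes and turned to 0.035 with median-ratio scaling. Cox7a2 was called lower with FPKM (−0.16, adjusted p = 0.0131 from limma) and after rescaling without mitochondrially encoded genes (−0.14, adjusted p = 0.0249 from limma). Cox7a1 (ENSMUSG00000074218, chromosome 7 from 30184171 to 30186028) was at 1.21, 2.34 and 4.42 TPM in normoxia and at 7.16, 5.73 and 3.90 TPM in hypoxia. Hypoxia replicate 3 lay below normoxia replicate 3, so the groups overlapped. The log2 fold change of Cox7a1 was 0.92 (95% interval 0.10 to 1.73, adjusted p = 0.0588 from limma), which passed the threshold under median-ratio scaling (0.0452), under quantile normalization (0.0336), with coverage (0.0468) and without normoxia replicate 3 (0.0133). Without single libraries it ranged from 0.60 to 1.25, and its adjusted p from limma was 0.142 without normoxia replicate 1 and 0.164 without hypoxia replicate 1. Cox7a2l made up 68.9% ± 1.36 of the summed TPM of the family in normoxia and 75.4% ± 0.78 in hypoxia (SD, n = 3, exact permutation p = 0.1, 0.2 when adjusted over 6 shares). The share of Cox7a1 was 0.438% ± 0.264 and 0.788% ± 0.258 (SD, n = 3, exact permutation p = 0.2).

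**Figure D4:**
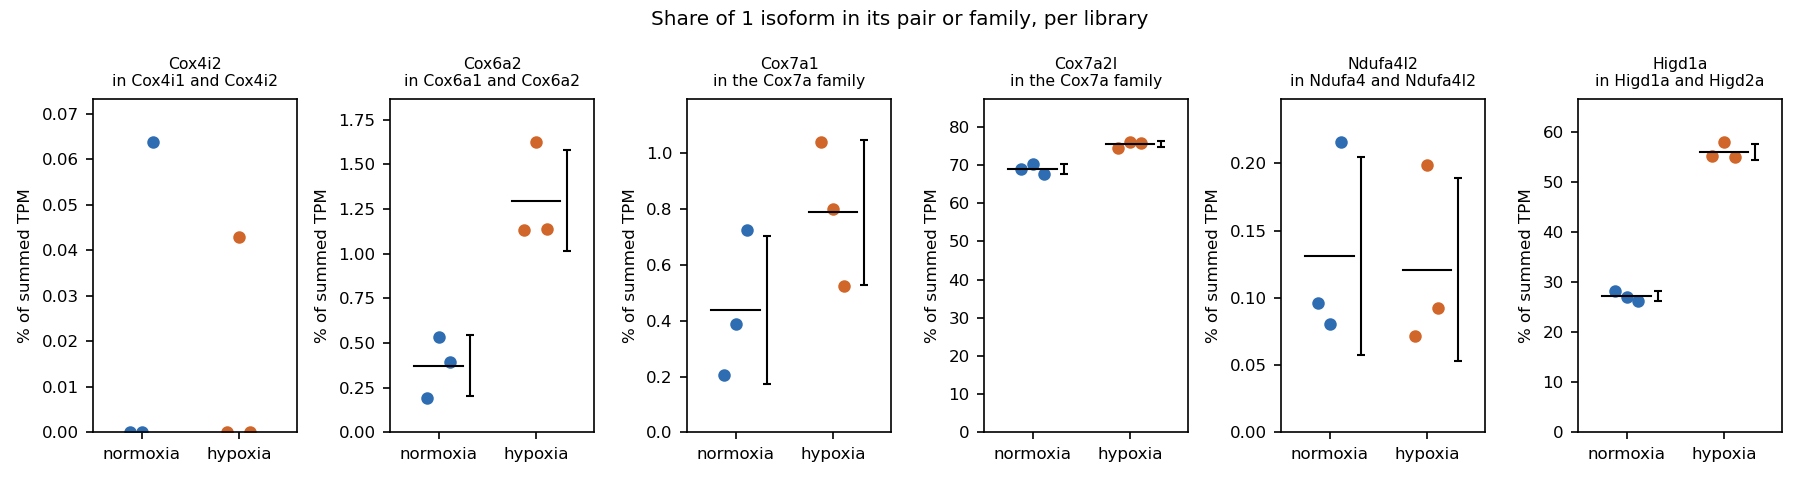
Share of 1 isoform in the summed TPM of its pair or family in each library (vertical axes in percent from 0, each panel with its own scale). Points are libraries, lines group means and bars SD (n = 3), left out for Cox4i2. The shares of Higd1a, Cox7a2l and Cox6a2 do not overlap between groups, whereas those of Cox4i2, Ndufa4l2 and Cox7a1 do.

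The order of the abundant members changed with oxygen. In normoxia it ran from Cox6a1 (606 ± 12.1 TPM) and Ndufa4 (595 ± 15.3), whose ranges overlapped, to Cox7a2l (416 ± 9.33) and Cox4i1 (399 ± 110), which also overlapped, and then to Cox7a2 (185 ± 7.97) and Higd1a (63.0 ± 2.69; all SD, n = 3). In hypoxia Cox6a1 (546 ± 12.2) and Cox7a2l (540 ± 25.9) overlapped at the top, Cox4i1 (317 ± 83.9) and Ndufa4 (272 ± 28.9) overlapped below them, and Higd1a (205 ± 11.3) lay above Cox7a2 (171 ± 5.55) without overlap. Cox7a1, Cox6a2, Ndufa4l2 and Cox4i2 were the lowest of the 10 in both groups.

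The other subunits of the enzyme gave a scale within the complex. Of 11 other nuclear subunits 7 were tested, of which 6 were lower, none was higher and Cox8a was not called, beside 36.1% lower among all tested genes, with a median log2 fold change of −0.29. Under median-ratio scaling 1 was lower (Cox6c) and 1 was higher (Cox8a), with a median of −0.15, and under quantile normalization 5 were lower (Cox5a, Cox5b, Cox6b1, Cox6c and Cox7c) and none higher, with a median of −0.26. Cox6c fell from 468 ± 11.5 to 347 ± 22.4 TPM (SD, n = 3). Cox8a was at 794 ± 22.1 and 811 ± 31.3 TPM (SD, n = 3). Cox5a, which with COX4 forms an early part of the assembling enzyme, went from 233 ± 11.3 in normoxia to 190 ± 11.1 TPM in hypoxia (SD, n = 3). The falls of Cox5b, Cox6b1, Cox7b and Cox7c were −0.31, −0.23, −0.33 and −0.16 as log2 fold changes. The testis and muscle forms Cox8c and Cox8b were listed at 0 in every library, and the testis forms Cox6b2 and Cox7b2 reached at most 1.65 and 0.242 TPM. The geometric mean of the 7 tested subunits was 276 ± 5.08 TPM in normoxia and 232 ± 2.77 in hypoxia (SD, n = 3), a log2 difference of −0.25.

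Ratios to that mean were taken as log2(TPM) without the added 1, which gives larger changes for low genes such as Cox6a2 and Cox7a1. Set against that mean in the same library, Higd1a was higher by 1.95 on the log2 scale in hypoxia, Cox6a2 by 2.01, Cox7a1 by 1.47 and Cox7a2l by 0.63. Ndufa4 was lower, with a difference of −0.89. These 5 of the 8 members did not overlap between groups (exact permutation p = 0.1 each, the smallest possible, 0.16 when adjusted over 8 members). On plain TPM 62.4% of all tested genes did not overlap, and no such share was computed for these ratios. Cox4i1 (−0.071), Cox6a1 (0.097) and Cox7a2 (0.14) overlapped. The difference of Cox6a1 turned to −0.016 with quantile normalization and that of Cox4i1 turned to 0.24 with coverage. Ndufa4 was thus 2.16 times the mean of the other subunits in normoxia and 1.17 times in hypoxia, and Higd1a went from 0.228 to 0.884 times that mean.

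Among the catalytic subunits made in mitochondria, mt-Co1 fell from 22577 ± 259 to 18338 ± 604 TPM and mt-Co2 from 8440 ± 102 to 7023 ± 148 TPM (SD, n = 3). The remaining subunit, mt-Co3, was at 5405, 5467 and 5325 TPM in normoxia and at 2294, 2246 and 2301 TPM in hypoxia. The log2 fold changes of the 3 genes were −0.30, −0.27 and −1.24 (adjusted p = 0.000361, 0.000371 and 1.25e-06 from limma). With quantile normalization mt-Co2 was called higher, mt-Co1 was not called and mt-Co3 stayed lower, and without the filter on low values the call of mt-Co3 alone remained. Quantile normalization gives a gene of the same rank in every library the same value. The log2 fold change of mt-Co1, the median of the 3 genes, was −1.5e-16 there, so this setting could not test its fall. The log2 ratio of mt-Co3 to mt-Co1 was −2.06 in normoxia and −3.01 in hypoxia, with no overlap (exact permutation p = 0.1).

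Of 26 genes that assemble complex IV, all tested, 14 fell, 2 rose and 10 were not called, beside 36.1% lower and 17.9% higher among all tested genes, with a median log2 fold change of −0.34. Median-ratio scaling left 12 lower and 4 higher, with a median of −0.21, and quantile normalization left 10 and 3, with −0.14. Coa3, which acts in the translation of mt-Co1, fell from 94.3 ± 3.67 to 63.7 ± 3.41 TPM, and Coa7 from 7.86 ± 1.11 to 3.25 ± 0.339 TPM (SD, n = 3). Taco1, a translational activator of mt-Co1, fell from 25.3 ± 0.256 to 14.7 ± 2.26 TPM, and Cox10, of heme A synthesis, from 18.1 ± 0.33 to 13.6 ± 0.343 TPM (SD, n = 3). Smim20, known as MITRAC7, rose from 2.82 ± 0.418 to 4.99 ± 0.285 TPM, and Cep89 from 18.4 ± 2.84 to 27.2 ± 2.60 TPM (SD, n = 3). The read depth of Smim20 per gigabase was 0.755 ± 0.0597 and 0.767 ± 0.139 (SD, n = 3), and its call was lost with coverage. Cycs, the somatic cytochrome c gene, went from 79.3 ± 1.77 in normoxia to 46.9 ± 2.67 TPM in hypoxia (SD, n = 3, log2 fold change −0.75, called lower), and the testis form Cyct reached at most 0.49 TPM.

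**Figure D5:**
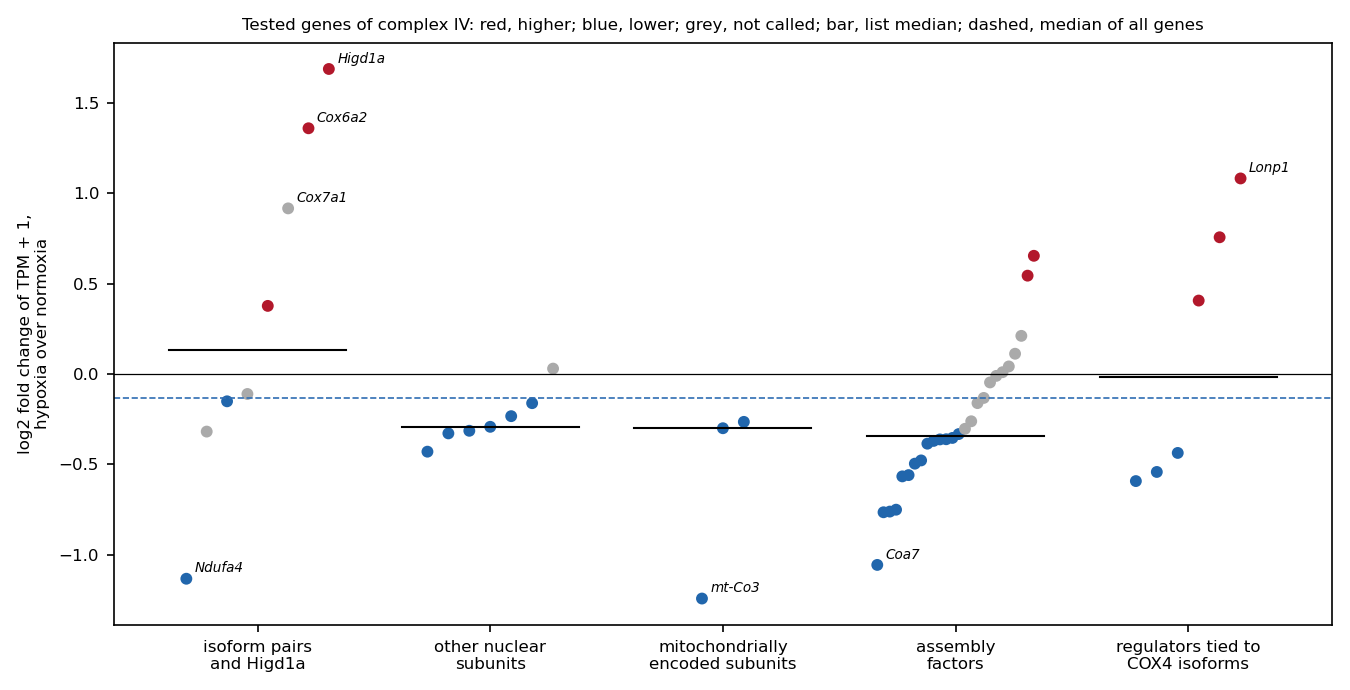
Log2 fold change of TPM + 1, hypoxia over normoxia, of each tested gene in 5 lists around complex IV. Points are genes (red called higher, blue called lower, grey not called), bars are list medians and the dashed line is the median of all tested genes at −0.13. The other nuclear subunits lie within −0.43 and 0.03, while the isoform pairs with Higd1a spread from −1.13 to 1.69.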

How the data were processed

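Poly(A) RNA of 6 libraries was sequenced in pairs on an Illumina NovaSeq. Read filtering by the authors used Cutadapt, alignment to mm10 used HISAT2 and gene levels came from StringTie, whose versions and the annotation release are not given in the sources used here. The deposited values are TPM, FPKM and coverage (mean read depth, not scaled for library size) for annotated genes and again for loci assembled from the reads. Assembled loci sum to 1000000 TPM, so annotated rows alone were used, without rescaling. Aligned gigabases were computed as the largest ratio of deposited coverage to FPKM among rows above a minimum FPKM in each library. The authors ran edgeR for their own tests; the deposited tables used here hold no counts, so limma 3.58.1 in R 4.3.3 (variance trend, 2-sided) was used. No counting interval was calculated, and 3 libraries per group limit precision.

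Of 43432 gene IDs, 42462 matched a symbol in GENCODE M21. Coordinates are those deposited, since M21 gives other ends for several genes. Members, lists and named genes (all members, short lists, the leading assembly factors and nearest profiles) were chosen with earlier results of these data known. The fit was also run on simulated data with few changed genes and independent noise, a setting that does not test the scaling. Alternatives were pseudocounts of 0.1 and 5, other filters, FPKM, median-ratio, quantile and mitochondria-free scaling, no trend, a replicate block, leaving out each library, assembled loci and, added later, coverage.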

Additional observations from a re-analysis of the deposited data

How the results depend on the processing

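The log2 fold changes of Higd1a, Ndufa4, Cox6a2 and Cox7a2l kept their direction and call under every alternative in which they were tested. Cox7a2 turned to 0.035 with median-ratio scaling and to 0.23 with assembled loci, where hypoxia replicate 3 was at 363 TPM, and Cox4i1 turned to 0.0097 with coverage (chosen after seeing the data). With median-ratio scaling the calls were 1 lower member, 1 higher and 1 lower among the other nuclear subunits (and among the 7 reference subunits) and 4 higher assembly factors. There was 1 higher assembly factor with a mean TPM of at least 5 and 1 with coverage. Among mitochondrially encoded subunits 1 was lower without the filter, and the cause was not tested. With quantile normalization 1 was higher and 1 lower, and the value of mt-Co1 was fixed there by its rank.

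Against the reference subunits, Cox4i1 turned to 0.041 with assembled loci and 0.24 with coverage, Cox6a1 turned to −0.016 with quantile normalization and Cox7a2 moved to 0.48 with assembled loci. Without single libraries Cox4i1 ranged from −0.32 to 0.095. The difference in the share of Cox4i2 ranged from −0.0212 to 0.0143 percentage points and that of Ndufa4l2 from −0.0486 to 0.0324. Without single libraries the tested members gave 3 to 4 higher and 2 lower, and all genes 2101 to 2295 higher and 4315 to 4781 lower.

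Same-numbered libraries showed no shared deviation from their group means across genes (correlations of 0.0259, 0.0333 and 0.0109). These values cannot show whether such libraries shared a culture or a day, and no label states it. With the replicate number as a block 2281 genes were higher and 4674 lower, and 3 members were higher and 2 lower, as without it. Assembled loci were used where they lay on the gene's strand and covered at least 50% of it. Cox4i2, Cox7a1, Cox7a2l and Ndufa4l2 lacked such a locus in at least 1 library, Cox4i2 in all 6, and were not refitted with assembled loci. Low members rest on read depths under 25, and no counts set their error.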
